A study of Mus musculus with 8 samples.

Results

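The genes Sst, Tac1, Tac2, Nts, Cartpt, Gal and Adcyap1 encode precursors of peptides that neurons release alongside their fast transmitter, and several of them mark neuron populations of the central amygdala. They were taken by gene symbol from a table of 18983 genes, in which all 7 members were found, and all 7 were among the 15186 genes with enough counts to be tested. The table covers 8 libraries of poly(A) RNA from the central amygdala of 129SV mice at an age of 7 months. A high fat diet (HFD) had been given for 20 weeks in 4 of them, and normal chow for as long in the other 4. The libraries are named here by diet and by the number in their titles, which is 1, 2, 5 or 8 in each diet. The labels do not say whether a library is 1 animal or a pool, so p-values speak only to the variation among these libraries, part of which may be technical. Estimated counts per library summed to 17451111 to 19562368.

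A neuropeptide is cut from its precursor in dense-core vesicles and in most cases acts on G protein-coupled receptors, often at a distance from the release site. Somatostatin (Sst) is inhibitory and marks a large population of the central amygdala as well as cortical interneurons. The tachykinins are substance P and neurokinin A, from Tac1, and neurokinin B, from Tac2. Tac1 is also a gene of striatal spiny projection neurons. Neurotensin (Nts), the CART prepropeptide (Cartpt), galanin (Gal) and PACAP (Adcyap1) are peptides with known actions on feeding, stress and autonomic output in rodents.

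The members lie on different chromosomes except Tac2 and Nts, which are both on chromosome 10 but far apart. In the mm10 build the annotated genes are Sst at chr16:23889573-23891342, Tac1 at chr6:7555061-7562978, Tac2 at chr10:127724478-127731768 and Nts at chr10:102481756-102490418. Cartpt is at chr13:99898483-99910179, Gal at chr19:3409915-3414544 and Adcyap1 at chr17:93198245-93206541. For each member, 0 other genes of GENCODE M21 overlap the gene body, as RefSeq and GENCODE together delimit it, on either strand.

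The 250 bases before a transcript start annotated by RefSeq are shown for 5 members, to set Sst, whose level varied least over the libraries, beside the members whose levels varied together (Tac1, Nts and Tac2) and beside Cartpt. They come from RefSeq annotation of GRCm38.p6, the build of mm10, and are written on the gene's strand. Capitals mark the cyclic AMP response element TGACGTCA and its core TGACG, searched on both strands. A core on the opposite strand appears here as CGTCA. The core is part of the full element. The intervals are chr16:23890845-23891094, chr13:99900684-99900933, chr6:7554811-7555060, chr10:102490419-102490668 and chr10:127724228-127724477, with Tac1 and Tac2 on the plus strand and the others on the minus strand.
Sst: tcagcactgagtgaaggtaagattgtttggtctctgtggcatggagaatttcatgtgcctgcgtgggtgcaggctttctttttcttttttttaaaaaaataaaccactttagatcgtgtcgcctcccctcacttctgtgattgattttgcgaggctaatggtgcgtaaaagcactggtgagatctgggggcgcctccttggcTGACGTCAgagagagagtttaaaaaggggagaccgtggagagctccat
Cartpt: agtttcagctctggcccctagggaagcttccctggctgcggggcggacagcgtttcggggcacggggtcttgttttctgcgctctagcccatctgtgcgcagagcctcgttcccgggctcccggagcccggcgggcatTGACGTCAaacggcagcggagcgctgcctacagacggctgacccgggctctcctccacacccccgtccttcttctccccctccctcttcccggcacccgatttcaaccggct
Tac1: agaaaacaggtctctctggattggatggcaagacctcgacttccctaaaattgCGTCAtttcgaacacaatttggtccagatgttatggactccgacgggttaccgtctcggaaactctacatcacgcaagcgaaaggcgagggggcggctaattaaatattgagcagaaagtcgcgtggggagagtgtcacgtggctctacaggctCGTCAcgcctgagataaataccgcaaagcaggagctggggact
Nts: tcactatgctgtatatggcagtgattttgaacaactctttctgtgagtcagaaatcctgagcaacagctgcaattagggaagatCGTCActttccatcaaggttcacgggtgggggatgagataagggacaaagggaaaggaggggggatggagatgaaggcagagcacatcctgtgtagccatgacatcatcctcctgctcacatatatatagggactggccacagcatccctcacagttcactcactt
Tac2: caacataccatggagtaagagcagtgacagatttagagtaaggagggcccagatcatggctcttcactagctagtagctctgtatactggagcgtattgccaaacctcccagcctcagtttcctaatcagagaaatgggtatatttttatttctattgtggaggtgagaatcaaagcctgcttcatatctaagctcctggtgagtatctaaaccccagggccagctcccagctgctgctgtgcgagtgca
The full element starts 48 bases before the transcript start used for Sst and 112 bases before that used for Cartpt. Both windows lie inside the annotated genes given above, which extend to chr16:23891342 for Sst and chr13:99910179 for Cartpt. The full element occurs in 1.55% of the 32851 RefSeq promoter windows of this length. The core without the full element is at 197 and 43 bases before Tac1 and at 166 bases before Nts. The core, alone or within the full element, occurs in 17.8% of windows. These letters are not in the Tac2 window, nor in that of Gal, which is not shown. For Adcyap1, also not shown, the core is 91 or 242 bases before the start, depending on which of 2 annotated starts is taken. A match is a description of the sequence. No binding was measured, and a link between matches and the levels of these genes was not tested.

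Levels of different genes were compared as CPM (counts scaled to library size) per kilobase, with the length implied by the authors' mean FPKM. Sst was the highest member in every library, with a median of 565 CPM per kilobase and a range of 404 to 838. Its range did not overlap that of the next member. Tac2 followed with a median of 47.8 CPM per kilobase (range 7.43 to 119) and Tac1 with 42.5 (range 14.1 to 86.2), and these ranges overlapped. Nts and Cartpt had nearly equal medians of 14.5 and 14.3 CPM per kilobase, with ranges of 3.42 to 25.5 and 3.85 to 29.1. Adcyap1 and Gal were lowest, with medians of 3.87 and 3.12 CPM per kilobase and ranges of 2.07 to 8.66 and 0.227 to 5.76. Below Sst, the ranges of all neighbours in this order overlapped. Within libraries, Tac1 was nevertheless above Nts, and Cartpt above Adcyap1, in 8 of 8. Tac2 was above Tac1 in 5 of 8 libraries, Nts above Cartpt in 4 and Adcyap1 above Gal in 6, so the order of these pairs changed from library to library. Sst made up 64.2% of the summed level per kilobase of the 7 members in chow library 8 and 95.0% in HFD library 1. Tac2 per kilobase was 1.26% of Sst in HFD library 1 and 22.0% in chow library 8.

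**Figure D1:**
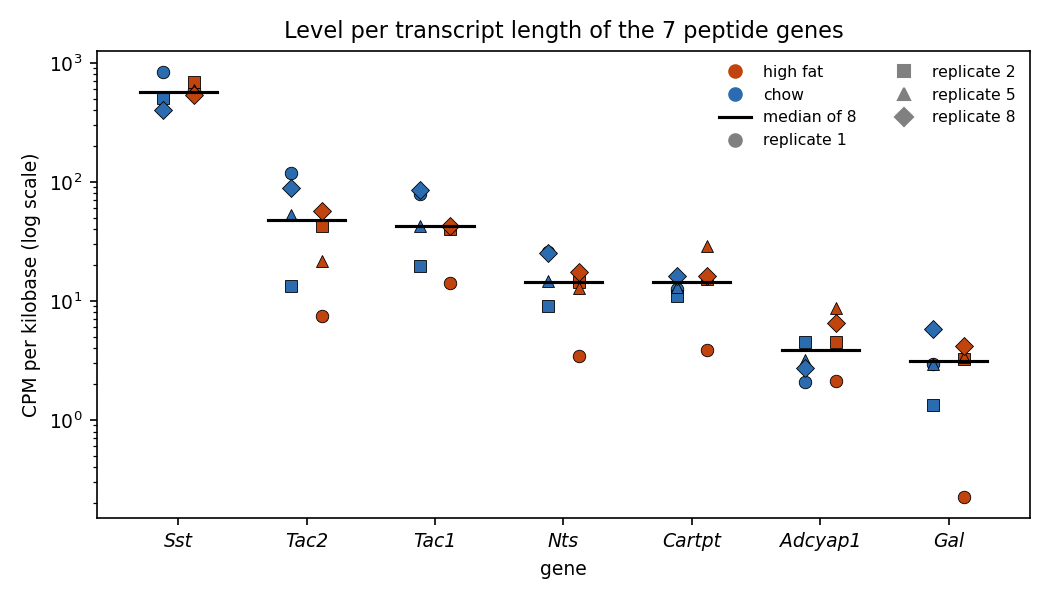
CPM per kilobase of implied transcript length (log axis) for the 7 peptide genes in 8 libraries. Each point is a library (colour, diet; shape, replicate number) and each line the median of 8. Sst lies between 404 and 838 and apart from all others, and the ranges of the 6 other genes overlap with those of their neighbours.

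The diet comparison asked whether these peptide genes differ in the central amygdala after 20 weeks of high fat diet. None of the 7 members passed the threshold, an adjusted p under 0.05 by edgeR's quasi-likelihood test over all 15186 genes. The share of all tested genes that passed was 0%. At an unadjusted p under 0.05 there were 0 of 7 members and 4.27% of all tested genes. The values of the diets overlapped for each of the 7 members, while 1.36% of tested genes had groups that did not overlap. Negative folds (HFD over chow) were seen for 4 of the 7, beside 51.8% of tested genes, and the median log2 fold of all tested genes was -0.012. With a median SE of 0.21 on the log2 scale over all genes, the members' own SEs of 0.23 to 0.71 left wide room for differences that these libraries could not show.

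Sst was at 327, 381, 327 and 298 CPM in HFD libraries 1, 2, 5 and 8. In chow it was at 463, 280, 235 and 223 CPM in libraries 1, 2, 5 and 8. The 4 HFD libraries lay close together and above chow libraries 2, 5 and 8, while chow library 1 was the highest of all. The means were 333 ± 34.5 CPM under HFD and 300 ± 111 CPM under chow (SD, n = 4 each). The log2 fold was 0.15 ± 0.23 (SE), with an adjusted p of 0.864 by edgeR. Without chow library 1 the fold was 0.43 and the adjusted p 0.659, with an unadjusted p of 0.0078 by edgeR. Without chow libraries 5 and 8, a choice made after the values were seen, it was -0.16 (adjusted p = 0.811 by edgeR).

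The tachykinin genes varied far more between libraries than Sst did. Tac1 was at 13.9, 39.5, 43.3 and 41.4 CPM in HFD libraries 1, 2, 5 and 8. In chow it was at 78.3, 19.4, 42.0 and 84.6 CPM. HFD library 1 and chow library 2 were lowest, and chow libraries 1 and 8 were highest. The log2 fold of Tac1 was -0.70 ± 0.49 (SE; means 34.5 ± 13.9 and 56.1 ± 30.8 CPM, SD, n = 4 each; adjusted p = 0.754 by edgeR). Tac2 was at 4.70, 27.0, 13.7 and 36.3 CPM in HFD libraries 1, 2, 5 and 8. In chow it was at 75.2, 8.39, 33.5 and 56.2 CPM. The same libraries stood at the ends as for Tac1, and the highest Tac2 value was 16.0 times the lowest. The log2 fold of Tac2, -1.09 ± 0.71 (SE; means 20.4 ± 14.0 and 43.3 ± 28.9 CPM, SD, n = 4 each; adjusted p = 0.754 by edgeR), was the largest in size among the members. Without chow library 2 the folds of Tac1 and Tac2 were -0.98 and -1.43, with adjusted p of 0.229 and 0.238 by edgeR. Without chow library 1 they were -0.50 and -0.69.

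Nts was at 3.86, 16.2, 14.5 and 19.8 CPM in HFD libraries 1, 2, 5 and 8. In chow it was at 28.9, 10.2, 16.6 and 28.7 CPM. It ordered the 8 libraries exactly as Tac2 did. The log2 fold of Nts was -0.63 ± 0.49 (SE; means 13.6 ± 6.84 and 21.1 ± 9.28 CPM, SD, n = 4 each; adjusted p = 0.754 by edgeR), and -0.33 without HFD library 1.

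Cartpt had a wide spread under HFD and a narrow one under chow. It was at 3.08, 12.3, 23.2 and 12.8 CPM in HFD libraries 1, 2, 5 and 8, and at 10.1, 8.72, 10.6 and 13.0 CPM in chow. Its lowest and its highest library were both from HFD. The SD of log2 CPM was 1.22 for HFD against 0.23 for chow, and the medians over all tested genes were 0.17 and 0.36. The SD was also larger under HFD for Nts (1.06 and 0.72), Gal (1.66 and 0.81) and Adcyap1 (0.87 and 0.47), and smaller for Sst, Tac1 and Tac2. The log2 fold was 0.28 ± 0.48 (SE; means 12.9 ± 8.24 and 10.6 ± 1.78 CPM, SD, n = 4 each; adjusted p = 0.873 by edgeR). The direction was not stable, since the fold was -0.17 without HFD library 5 and -0.016 by another method (limma-voom) with all libraries kept.

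Gal was the least abundant member by counts, at 3, 44, 46 and 56 counts in HFD libraries 1, 2, 5 and 8. In chow it had 42, 18, 39 and 77 counts. In CPM these were 0.168, 2.42, 2.50 and 3.07 under HFD and 2.17, 0.994, 2.19 and 4.26 under chow. At 3 counts the value of HFD library 1 carries a large counting error, so the 8-library range of Gal is not well set. The log2 fold was -0.23 ± 0.69 (SE; adjusted p = 0.929 by edgeR), turning to 0.15 if HFD library 1 was left out and to 0.19 if chow library 8 was.

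Adcyap1 was the only member with an unadjusted p under 0.1, at 0.083. It was at 7.05, 15.1, 28.8 and 21.6 CPM in HFD libraries 1, 2, 5 and 8. In chow it was at 6.88, 15.1, 10.6 and 9.12 CPM. HFD libraries 5 and 8 were highest, and HFD library 1 lay beside the lowest chow library. The log2 fold was 0.80 ± 0.41 (SE; means 18.1 ± 9.26 and 10.4 ± 3.48 CPM, SD, n = 4 each; adjusted p = 0.753 by edgeR). Leaving out HFD library 5 gave 0.48, and leaving out HFD library 1 gave 1.06.

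**Figure D2:**
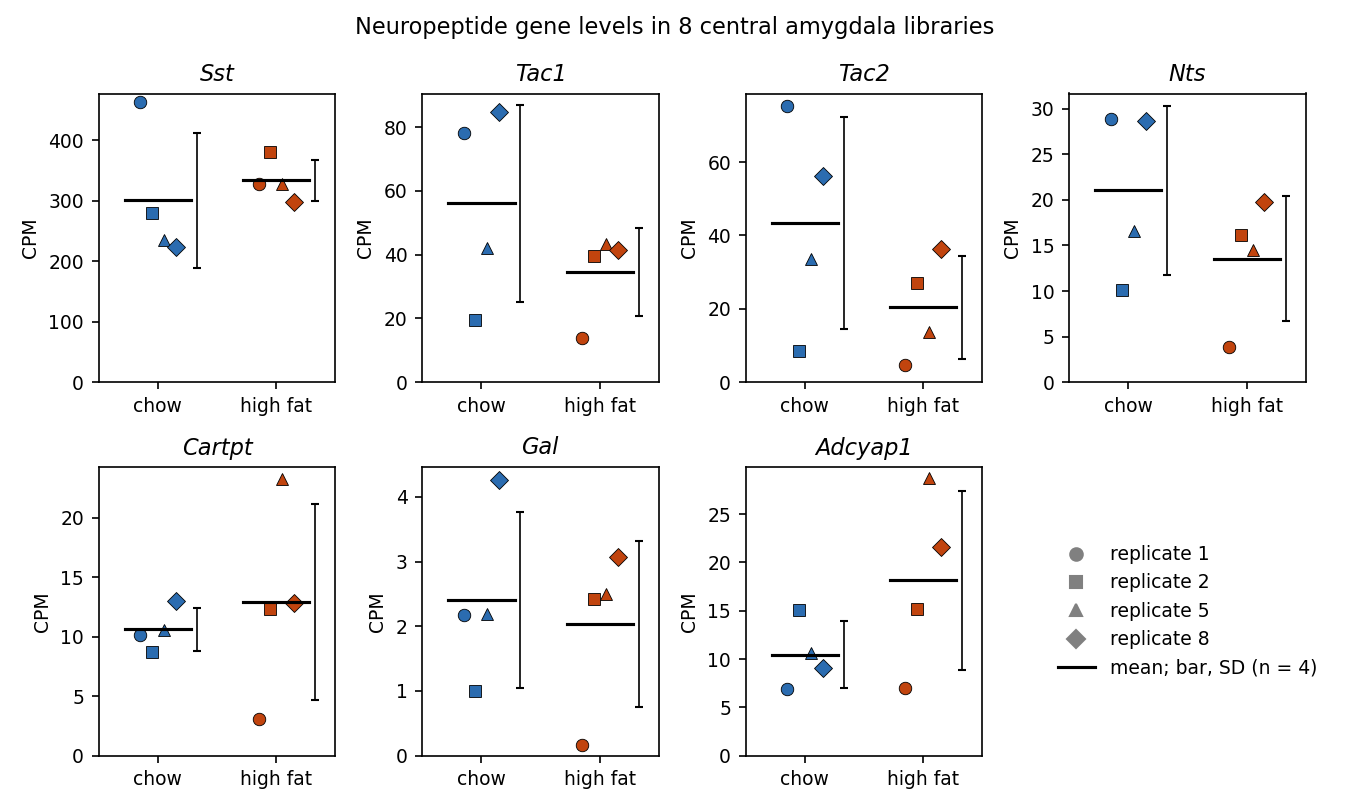
CPM of each peptide gene in the 4 chow and 4 HFD libraries, with the mean (line) and SD (bar) of each diet, n = 4; shapes give the replicate number. HFD library 1 (orange circle) is the lowest library for Tac1, Tac2, Nts, Cartpt and Gal, and the diets overlap in all 7 panels.

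Most of the members' variation lay between libraries of the same diet, which held 76.3% (Adcyap1) to 99.98% (Cartpt) of the sum of squares of log2 CPM. With 4 libraries per diet, most of it lies there on average for a gene without a diet difference too. The share over all tested genes was not computed, so whether this is particular to the members is not known. HFD library 1 was the lowest library for 5 of the 7 members, namely Tac1, Tac2, Nts, Cartpt and Gal. It was the lowest library for 13.9% of all tested genes. Chow library 1 was the highest library for Sst, Tac2 and Nts, as it was for 33.2% of tested genes. The range of log2 CPM over the 8 libraries was 3.97 for Tac2, 3.98 for Gal, 2.87 for Nts, 2.87 for Cartpt, 2.60 for Tac1 and 2.05 for Adcyap1, beside a median of 0.93 over all tested genes. Sst, with 1.05, was close to that median.

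Tac1, Tac2 and Nts varied together over the libraries. Correlations of log2 CPM were computed for the 21 pairs of members over 8 libraries, with exact two-sided permutation p over all orders, adjusted over the 21 pairs by Benjamini-Hochberg. Tac2 and Nts had Pearson r = 0.95 (exact permutation p = 2.48e-05, the smallest that the permutations can give; adjusted p = 0.000521) and Spearman rho = 1.00 (p = 4.96e-05, adjusted p = 0.00104, exact permutation). Without the 2 libraries farthest from the Tac2 median r was 0.92, and with each diet's mean subtracted (within diets) it was 0.94. Tac1 and Nts had r = 0.95 (exact permutation p = 0.000843, adjusted p = 0.00764) and rho = 0.81 (exact permutation p = 0.0218, adjusted p = 0.114). Their r was 0.93 without the 2 libraries farthest from the Tac1 median and 0.94 within diets. Tac1 and Tac2 had r = 0.94 (exact permutation p = 0.00109, adjusted p = 0.00764) and rho = 0.81 (exact permutation p = 0.0218, adjusted p = 0.114), with r = 0.76 without the 2 farthest and 0.93 within diets.

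Gal and Cartpt formed a further pair, with r = 0.88 (exact permutation p = 0.0116, adjusted p = 0.0348) and rho = 0.93 (exact permutation p = 0.00223, adjusted p = 0.0234). Their r was 0.92 without the 2 libraries farthest from the Cartpt median and 0.90 within diets. The r of Gal with Tac1 was 0.87 (exact permutation p = 0.00432, adjusted p = 0.0181) but 0.43 without the 2 libraries farthest from the Tac1 median. With Tac2 it was 0.82 (exact permutation p = 0.00699, adjusted p = 0.0245) but 0.22 without the 2 farthest from the Tac2 median. Both times these were HFD library 1 and chow library 2, so these r rested on those libraries. With Nts the r of Gal was 0.93 (exact permutation p = 0.00362, adjusted p = 0.0181), while rho was 0.55 (exact permutation p = 0.171, adjusted p = 0.399). This r was 0.95 without the 2 libraries farthest from the Nts median, which were HFD library 1 and chow library 1. Chow library 2 stayed in, so it is not the same check as for Tac1 and Tac2. Sst had r between -0.17 and 0.050 with the 6 other members, with adjusted p of 0.985 each by exact permutation. All members measured in a library share its tissue, and the sums of regional markers given below differed between libraries. The part of such differences in these correlations was not tested.

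The dissected tissue held markers of several neighbouring regions, and their sums differed between libraries. All 10 markers of central amygdala neurons were above the count filter, with 4 positive and 6 negative folds and 0 passing. These counts include the members Sst, Tac2 and Nts. The 7 other markers summed to 189 to 271 CPM under HFD and 218 to 416 CPM under chow. Among them Prkcd was at 11.0 to 25.1 CPM under HFD and 20.1 to 273 CPM under chow, with the maximum in chow library 5. That library was also highest in thalamic markers, and Prkcd made up 273 of its sum of 416 CPM. In chow library 1, highest in choroid plexus and ependymal markers, Ezr made up 233 of the sum of 366 CPM. Crh was at 2.29 to 8.25 CPM and 2.82 to 16.4 CPM. Calcrl, Dlk1 and Gpr101 had positive log2 folds of 0.33 ± 0.33, 0.40 ± 0.21 and 0.36 ± 0.24 (SE). Prkcd, Crh, Ezr and Cyp26b1 had negative ones of -2.54 ± 0.81, -0.63 ± 0.61, -0.81 ± 0.57 and -0.41 ± 0.64 (SE). Striatal spiny projection neuron markers (8 of 8 tested) summed to 204, 891, 390 and 628 CPM in HFD libraries 1, 2, 5 and 8, and to 2960, 301, 1284 and 1656 CPM in chow. HFD library 1 and chow library 2 were thus lowest in these markers, as they were in Tac1, Tac2 and Nts, and chow libraries 1 and 8 highest. Markers of basolateral and cortical excitatory neurons (8 of 8 tested) summed to 2289, 1663, 1512 and 816 CPM under HFD and to 350, 1762, 300 and 157 CPM under chow, so HFD library 1 was highest and chow library 2 second. Among markers, Slc17a7, the vesicular glutamate transporter of those neurons, was at 1724 CPM in HFD library 1 and 81.8 CPM in chow library 8. None of these marker lists has a marker listed at 0 in any library. Their part in the levels of the peptide genes was not tested, and in bulk tissue fewer cells of a type and less RNA per cell cannot be told apart.

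Other lists had partly different and partly the same libraries at their ends. Thalamic markers (8 of 8 tested) were highest in chow library 5, where Tac2 and Nts were mid-range. Their sum there was 472 CPM, against 58.9 to 235 CPM in the other libraries. The lowest thalamic sum was in HFD library 1, as for Tac1, Tac2 and Nts. In this list Shox2 was at 0 counts in 1 library. Hypothalamic and medial amygdala markers without Gal summed to 53.1 to 130 CPM under HFD and 49.2 to 150 CPM under chow, and 6 of the 8 were tested. The 2 that were not, Sim1 and Hmx2, were at 0 counts in 1 library and in 7 libraries. Cortical interneuron markers without Sst summed to 356 to 587 CPM under HFD and 265 to 365 CPM under chow. They were highest in HFD library 1, where Sst, at 327 CPM, was below only HFD library 2 and chow library 1. Both these markers and Sst were lowest in chow library 8, at 265 and 223 CPM. GABAergic neuron markers summed to 764 to 1238 CPM and 749 to 1844 CPM. Their lowest sums were in chow library 2, at 749 CPM, HFD library 5, at 764 CPM, and HFD library 1, at 779 CPM. The highest were in chow libraries 5, 8 and 1. Choroid plexus and ependymal markers summed to 220 to 3114 CPM and 122 to 6728 CPM, with the maximum in chow library 1, the library with the most Sst. Oligodendrocyte markers summed to 3748 to 8164 CPM and 2902 to 17787 CPM, astrocyte markers to 921 to 1175 CPM and 777 to 979 CPM, and microglia markers to 186 to 247 CPM and 185 to 363 CPM. Oligodendrocyte and microglia markers were both lowest in chow library 2. Both were higher in chow libraries 1, 5 and 8 than in any other library. The part of these lists in the levels of the peptide genes was not tested.

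**Figure D3:**
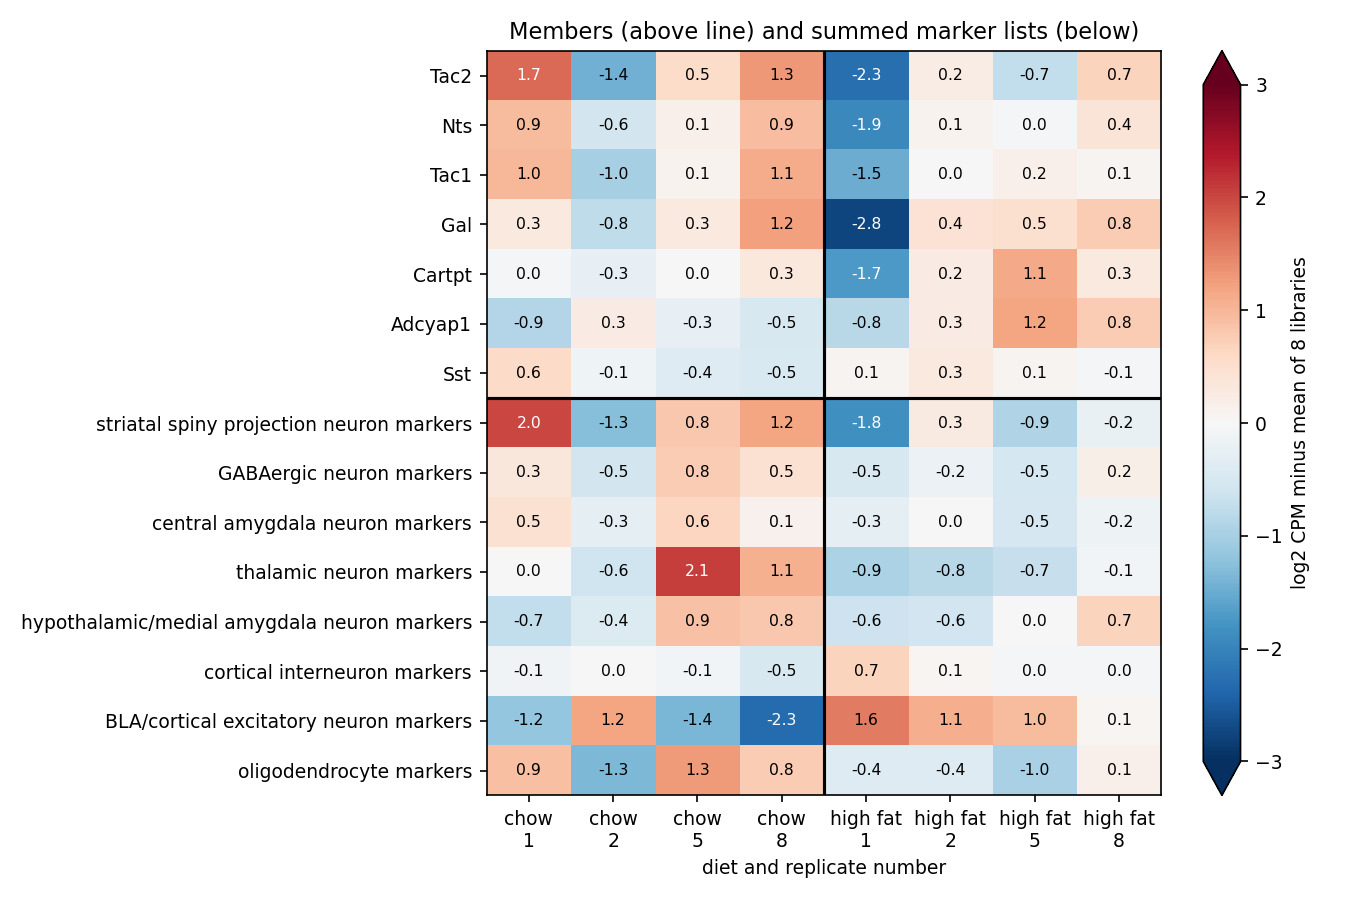
Log2 CPM minus the mean of 8 libraries for the 7 peptide genes (rows above the line) and, below it, log2 of the summed CPM of 8 marker lists without the members, also centred. Columns are libraries by diet and replicate. Tac2, Nts and Tac1 are low in HFD library 1 and chow library 2, as are the striatal markers, while the excitatory markers are high there.

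For each member, the genes most like it were taken as the 3 with the highest Pearson r of log2 CPM over the 8 libraries, among about 13200 genes averaging 50 counts or more. For Tac2 they were Crabp1 (r = 0.996), the dopamine receptor gene Drd2 (0.98) and Cdc26 (0.98). For Nts they included a pair of entries with identical counts, LOC100862455 and LOC100044627 (0.99 each), which may share reads. For Tac1 they were Prpsap2 (0.97), Cdc26 (0.97) and Sertad4 (0.96). For Sst they were Alg8 (0.99), Vgf (0.98), which encodes a secretory granule protein and peptide precursor, and H1f10 (0.97). Gal was closest to Ccl21b (0.97), Gabrq (0.96), a GABA-A receptor subunit, and Rps7 (0.95). Ccl21b and Rps7 have near-identical copies, which makes their counts uncertain. Adcyap1 was closest to Cpsf4 (0.95), Zfp781 (0.94) and Slc7a6os (0.93), and Cartpt to Fam3c (0.90), Tsr3 (0.90) and Dgat1 (0.89). Such maxima over many genes are a description, with 244 genes over r = 0.9 for Tac2 and 1 for Cartpt.

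Of 17 receptor genes for these peptides, 15 were tested and 0 passed in either direction, with 9 positive and 6 negative folds. The median log2 fold was 0.22, beside -0.012 for all tested genes, and 2 had an unadjusted p under 0.05. Those were Sstr3, a somatostatin receptor, at 31.6 ± 11.3 CPM under HFD and 14.7 ± 11.0 CPM under chow, and Vipr2, which binds PACAP and VIP, at 2.06 ± 0.955 and 6.75 ± 6.64 CPM (SD, n = 4 each). Their log2 folds were 1.11 ± 0.46 and -1.71 ± 0.69 (SE), each with adjusted p = 0.753 by edgeR. Vipr2 was highest in chow library 5, at 16.3 CPM, the library highest in thalamic markers. Sstr3 in chow was at 9.99, 31.1, 9.71 and 7.85 CPM in libraries 1, 2, 5 and 8, so chow library 2 lay among the HFD libraries, which ran from 21.2 to 47.6 CPM.

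The other somatostatin receptors Sstr1, Sstr2, Sstr4 and Sstr5 had log2 folds of 0.84 ± 0.43, 0.47 ± 0.41, 1.40 ± 0.73 and -0.53 ± 0.58 (SE). Of the tachykinin receptors, Tacr1, which prefers substance P, had -0.67 ± 0.47 and Tacr3, which prefers neurokinin B, had 0.01 ± 0.33. Tacr1 was lowest in HFD library 1 and chow library 2, at 4.20 and 6.62 CPM, and highest in chow library 8, at 25.5 CPM. The neurotensin receptors Ntsr1 and Ntsr2 had -0.38 ± 0.36 and -0.41 ± 0.21, and the sorting receptor Sort1, which binds neurotensin, had 0.39 ± 0.23. The galanin receptors Galr1 and Galr2, at 1.61 ± 0.490 and 1.57 ± 0.335 CPM under HFD, had 0.22 ± 0.32 and 0.23 ± 0.33. The PACAP receptor Adcyap1r1 had close means in the diets, at 247 ± 42.7 CPM under HFD and 251 ± 13.8 CPM under chow, with -0.02 ± 0.14. Vipr1 had 0.64 ± 0.50. Tacr2 and Galr3 were under the count filter, with mean CPM of 0.524 and 0.138 under HFD and 0.400 and 0.269 under chow.

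**Figure D4:**
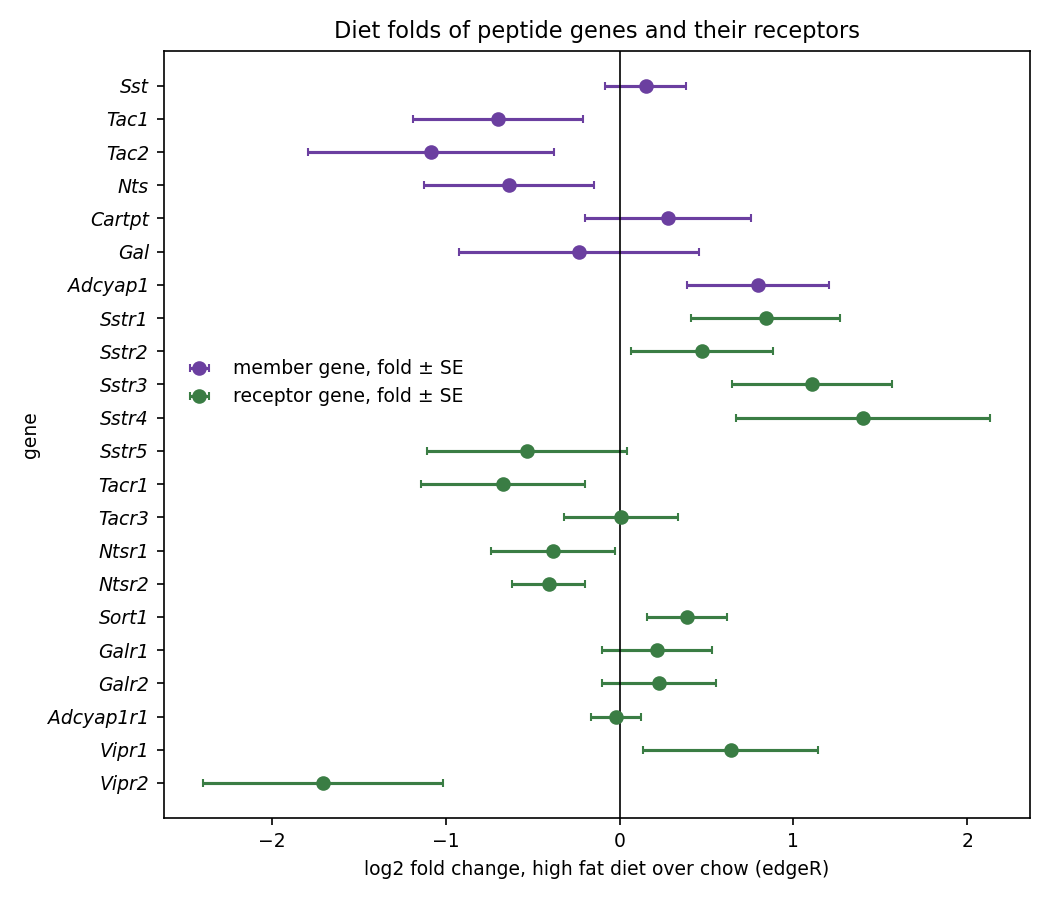
Log2 fold change, HFD over chow, of the 7 peptide genes (purple) and the 15 tested receptor genes (green), from edgeR with SE bars (4 libraries per diet). Tac2 is at -1.09 ± 0.71 and Adcyap1 at 0.80 ± 0.41, and no gene shown passed the threshold.

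Genes of related peptides and of peptide processing did not pass either. Of 4 related peptide genes, Cort and Vip were tested, with log2 folds of 1.41 ± 0.61 and 0.86 ± 0.67 (SE) and 0 calls, and Tac4 and Galp were at 0 counts in 6 and 7 of the 8 libraries. Cort encodes cortistatin, a relative of somatostatin found in cortical interneurons, and was at 11.5, 9.80, 9.74 and 7.90 CPM in HFD libraries 1, 2, 5 and 8 and at 3.98, 8.34, 0.786 and 1.49 CPM in chow. Chow library 2, the chow library with the most excitatory markers, was again beside the HFD libraries. All 14 genes of neuropeptide processing and granules were tested, with 9 positive, 5 negative and 0 passing, and a median log2 fold of 0.14. Their smallest p were those of Cadps2, a vesicle priming factor, with 0.79 ± 0.35, and Cpe, the carboxypeptidase that trims peptide ends, with 0.28 ± 0.16. Of 9 peptidases that break down neuropeptides, all were tested, with 3 positive, 6 negative and 0 passing, and a median of -0.13. Mme (neprilysin) had -0.64 ± 0.39 and Ace had -0.98 ± 0.71, and these had the smallest p. Ace was at 189 CPM in chow library 1, the library highest in choroid plexus and ependymal markers. It was at 25.4 to 49.4 CPM in the other chow libraries and 18.0 to 63.0 CPM under HFD.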

How the data were processed

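The authors deposited estimated (expected) read counts per gene for 8 libraries, and, averaged over each diet, estimated counts, FPKM and TPM, per the file headers. The submitters' processing notes name Bowtie2 2.2.5, RSEM 1.2.8 and mm10, giving them no role. Annotation and strandedness: not given in the sources used here. Of the values, 35.2% were not whole (tolerance 1e-06), and counts were rounded. Genes kept by filterByExpr were scaled by TMM and compared by diet with edgeR 4.0.16 (R 4.3.3; quasi-likelihood test, two-sided, no covariates), with Benjamini-Hochberg adjustment over 15186 genes. Each SE was derived from the log2 fold and its F statistic. CPM uses scaled library sizes, and log2 CPM a prior count of 2. The transcript length is the mean CPM divided by the deposited mean FPKM, averaged over the diets; the deposited mean TPM was used only to rank genes and its ranks are not printed.

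The members, gene lists and tests were chosen with earlier results of these data known. The genes named are the 7 members, receptors with a mean of at least 1 CPM, the 2 genes of smallest p in each other pathway list, the 3 genes of highest r with each member, and single markers where a member and a marker list share an extreme library. Of the genes this takes, 1 is not reported here, and any others named were chosen after their values were seen. On simulated data with 200 changed genes, edgeR called 24 of 67 genes changed 2-fold, 58 of 67 changed 4-fold and 65 of 66 changed 8-fold, and 12 of 14986 unchanged genes. Alternatives were RLE and upper-quartile factors, no filter, a mean of at least 50 counts, a block for the title number, omission of each library, DESeq2 1.42.0, limma-voom (limma 3.58.1) with and without quality weights, an adjusted p under 0.1 and an exact permutation test over 70 splits. Leaving out chow libraries 5 and 8 together was added after seeing the data.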

Additional observations from a re-analysis of the deposited data

Results flagged for a closer look

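Tac1 in HFD library 1 was at 13.9 CPM, far below the next lowest of its diet at 39.5 CPM, and the gap was 0.871 of the range of the 4 libraries, above Dixon's 95% critical value. It was the 1 flag among 14 groups of 4 libraries (7 members in each diet), where chance gives about 1 in 20 groups. Its log2 fold was -0.70 with that library and -0.44 without it.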

How the results depend on the processing

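None of the 7 members passed under any alternative run, and the smallest adjusted p was 0.0675, for Sst (log2 fold 0.56) in limma-voom with sample quality weights, where chow library 1 had a weight of 0.0865. Over all genes edgeR called 0 (649 at an unadjusted p under 0.05), as did DESeq2 (990), limma-voom (652) and limma-voom with quality weights (4492, with a smallest adjusted p over all genes of 0.0675), and leaving out 1 library gave 0 to 116 calls, the 116 without chow library 2. The direction of Tac1, Tac2, Nts and Adcyap1 held in every alternative. Leaving out 1 library moved Cartpt from -0.17 to 0.61 and Gal from -0.50 to 0.19, and it moved Sst from 0.032 to 0.43 with no change of direction. Cartpt also turned to -0.016 in limma-voom and to -0.019 as a difference of mean log2 CPM in the exact permutation test. Without chow libraries 5 and 8 together Sst was at -0.16 and Gal at 0.36. The cause of these turns was not tested, beyond the libraries left out. The exact permutation test over 70 splits gave p of 0.200 (Adcyap1) to 0.943 (Cartpt) for the members, and its smallest possible p is 0.0286. Gal is under a mean of 50 counts and has no value at that filter. Deviations of same-numbered libraries of the diets had r of 0.013, -0.043, 0.035 and 0.39, beside -0.56 to 0.32 for libraries of unlike number. The labels do not say whether the numbers pair libraries. These values cannot decide it, since deviations from other sources enter them too. With the title number as a replicate block edgeR called 0 genes, and the folds were 0.21 for Sst, -0.59 for Tac1, -1.01 for Tac2, -0.67 for Nts, 0.025 for Cartpt, -0.39 for Gal and 0.69 for Adcyap1. Depth limits Gal most, with 3 to 77 counts a library.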
